A study of Mus musculus with 17 samples.

Results

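The genes described here are 41 genes of glucose breakdown and of the response to low oxygen, chosen by name: sugar and lactate transporters, the enzymes of glycolysis with lactate dehydrogenase, the hypoxia-inducible factor Hif1a with 2 of its prolyl hydroxylases, and 13 hypoxia response genes outside glycolysis. Of these, 38 had a probe named in the array's annotation and 3 (Hk2, Gpi1 and Eno1) did not. All 38 passed the filter on dim probes and stood among 16462 named genes tested. The values come from 17 Illumina bead arrays, each hybridised with RNA from a population of OT-I CD8 T cells.

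The 4 groups all came from mice on a C57Bl/6 background, aged 2 to 6 months, that carry the OT-I transgene, a T cell receptor for an ovalbumin peptide. LSEC-primed cells (4 samples, numbered 4, 7, 14 and 15) came from coculture with LSEC, read here as liver sinusoidal endothelial cells. On 3 of these samples the submitters give the cell type as Tpm, which the series title spells out as partial memory T cells, and on sample 4 as LSEC-primed T cells. Memory cells (3 samples, 3, 5 and 9) were isolated from the spleens of mice that had been infected with ovalbumin-expressing Listeria monocytogenes 3 months earlier. Effector cells (5 samples, 6, 8, 10, 16 and 17) are described as activated by dendritic cells, with splenic dendritic cell coculture as the source of 4 of them and spleen as the source of sample 8. Naive cells (5 samples, 1, 2, 11, 12 and 13) came from spleen. The labels name no knockout and no batch, and they do not say how many animals or cultures a group stands for, so a p-value here reflects the scatter among these samples alone, which may be technical. The LSEC-primed and most effector samples had been cultured with other cells, while the memory and naive samples had not, so culture and priming cannot be told apart in comparisons across that line.

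Glycolysis splits glucose into pyruvate, and cells that make ATP in this way reduce the pyruvate to lactate and export it. HIF, a transcription factor whose alpha subunit is destroyed in the presence of oxygen after hydroxylation by prolyl hydroxylases, binds short DNA elements beside many genes of glycolysis. Naive and memory CD8 T cells are known for a quiet metabolism, and activation of T cells is known to raise glucose uptake and glycolysis, through T cell receptor, mTOR and Myc signals and through HIF even where oxygen is not limiting.

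Arrays in this series differed in quality, and this touches some of the results. Memory samples 3 and 5 were dim: their probes averaged 140.2 and 96.7 intensity units, and those of each other array 226.7 or more, and in memory sample 5 only 15.4% of probes lay above background, against 25.9% to 32.7% elsewhere. Of the T cell markers, Cd3d, Cd3e, Cd3g, Cd8b1, Cd2 and Thy1 lay above background on all 17 arrays, while the Cd8a probe did so on 1 array and the Cd5 probe on none. Endothelial markers summed to between 4764 and 7758 intensity units on the LSEC-primed arrays, to between 514.2 and 2497 on memory arrays, to between 1354 and 1889 on effector arrays and to between 763.1 and 1339 on naive arrays, with 8 of 15 called higher and none lower in LSEC-primed over naive cells, although Kdr, Flt1 and Clec4g lay above background on no LSEC-primed array. Stellate cell and fibroblast markers summed to between 732.7 and 1633 on LSEC-primed arrays, to between 102.6 and 349.0 on memory arrays, to between 98.2 and 140.3 on effector arrays and to between 112.3 and 121.4 on naive arrays. LSEC-primed sample 14 stood apart within its group, with 8 of 9 macrophage markers above background. Its macrophage sum was 3857, against 176.9 to 314.0 on the other LSEC-primed arrays, and its dendritic cell sum 9507 against 565.2 to 761.0. Macrophage sums were 193.2 to 497.0 on memory, 102.5 to 137.0 on effector and 215.4 to 1034 on naive arrays. Dendritic cell sums were 583.3 to 2934 on memory, 1754 to 2999 on effector and 500.1 to 3361 on naive arrays. Erythroid markers summed to between 5961 and 15225 on memory arrays and to between 6081 and 35279 on naive arrays, and to at most 78.4 on LSEC-primed and effector arrays. The part of these other cells in the results below was not tested.

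The members were highest in effector cells. In each array the median over the 38 members was taken after subtracting each member's naive mean, on the log2 intensity scale. This median was 0.18, 0.18, 0.79 and 0.41 in LSEC-primed samples 4, 7, 14 and 15, then 0.13, 0.11 and -0.05 in memory samples 3, 5 and 9, then 1.99, 1.77, 1.85, 2.09 and 2.19 in effector samples 6, 8, 10, 16 and 17, and between -0.07 and 0.06 in the naive samples. Every effector array lay above every other array, and every LSEC-primed array lay above every memory and naive array by a smaller margin. Effector sample 8, the one with spleen as its source, was the lowest of its group. Of the 38 members, 34 had their highest group mean in effector cells, and in 28 of these the effector mean was called above the next group by limma (adjusted p under 0.05, Benjamini-Hochberg over 23699 features). No matching share over all features was taken for these counts. The samples are bulk RNA, in which fewer cells of a type and less RNA per cell cannot be told apart.

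**Figure D1:**
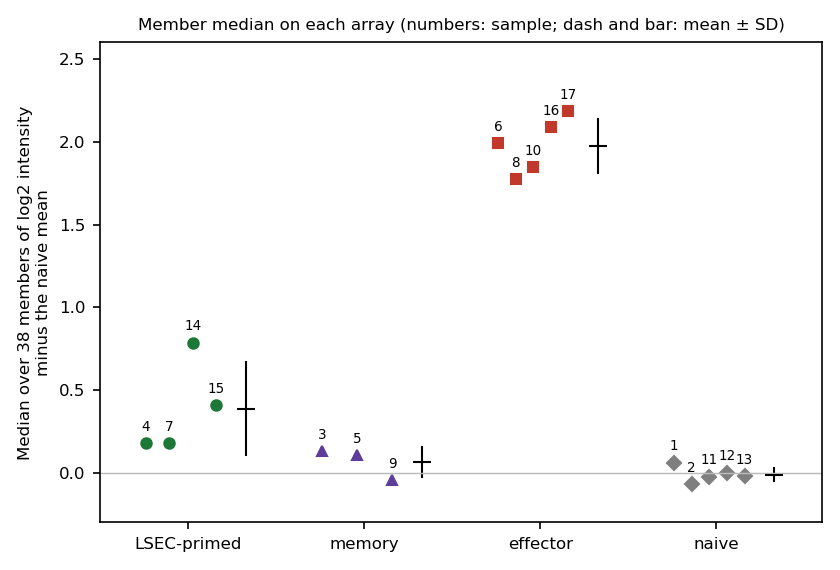
Median over the 38 measured members of the log2 intensity minus the naive mean (vertical axis), 1 point per array with its sample number, and the mean ± SD of each group beside its points. The 5 effector arrays lie between 1.77 and 2.19, the LSEC-primed arrays between 0.18 and 0.79, the memory arrays between -0.05 and 0.13 and the naive arrays between -0.07 and 0.06.

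The first comparison asked how far the members separate activated effector cells from naive cells. In effector over naive cells 32 of 38 members were called higher and 0 lower, and 6 did not pass, where 11.5% of all features tested were called higher and 11.4% lower (22.9% in either direction). The median difference of the members was 2.06 on the log2 scale, and that of all features was -0.01. With only features above background on at least 3 arrays, 2820 of 11305 were higher and 2798 lower, and 32 of 33 members were called. By size, 28 members were called and at least 2-fold higher, with no share over all features taken. The groups did not overlap in 31 members, with every effector array higher, as in 11.1% of all features, and none lay apart the other way (10.4% of all features). The 4 groups were fitted together, so all comparisons share 1 estimate of the spread, and those that name the same group share its arrays.

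The 10 members with the largest fitted differences in effector over naive cells are described first. Mgarp, a mitochondrial protein induced by low oxygen, had log2 intensities of 11.97, 11.60, 11.76, 11.65 and 11.73 in effector samples 6, 8, 10, 16 and 17, against 6.03, 6.05, 5.88, 5.89 and 6.18 in naive samples 1, 2, 11, 12 and 13. No naive array was above background, so that the effector level was at least 41.5-fold higher (adjusted p = 3.94e-10, limma, n = 5 and 5). Aldoc, an aldolase best known from brain, had 11.93, 11.83, 11.65, 11.87 and 11.74 in effector cells, against 6.41, 6.00, 6.13, 6.11 and 6.22 in naive cells, where 1 of 5 arrays was above background. The difference was 5.63 (SE 0.20, adjusted p = 6.89e-12). Egln3, a prolyl hydroxylase that is itself a HIF target, differed by 4.60 (SE 0.25), and Ddit4, an inhibitor of mTORC1 signalling, by 4.59 (SE 0.38). Tpi1, which interconverts the triose phosphates, differed by 4.46 (SE 0.23), Vegfa, the endothelial growth factor, by 3.90 (SE 0.19) and the stress response gene Ndrg1 by 3.67 (SE 0.16). Aldoa, the aldolase of muscle and most other cells, differed by 3.55 (SE 0.31), the platelet phosphofructokinase Pfkp by 3.55 (SE 0.54) and the ankyrin repeat gene Ankrd37 by 3.22 (SE 0.18). The adjusted p of these last 8 lay at or under 7.37e-05, and in each of them the groups did not overlap. Ddit4 and Vegfa were each above background on 1 of 5 naive arrays.

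**Figure D2:**
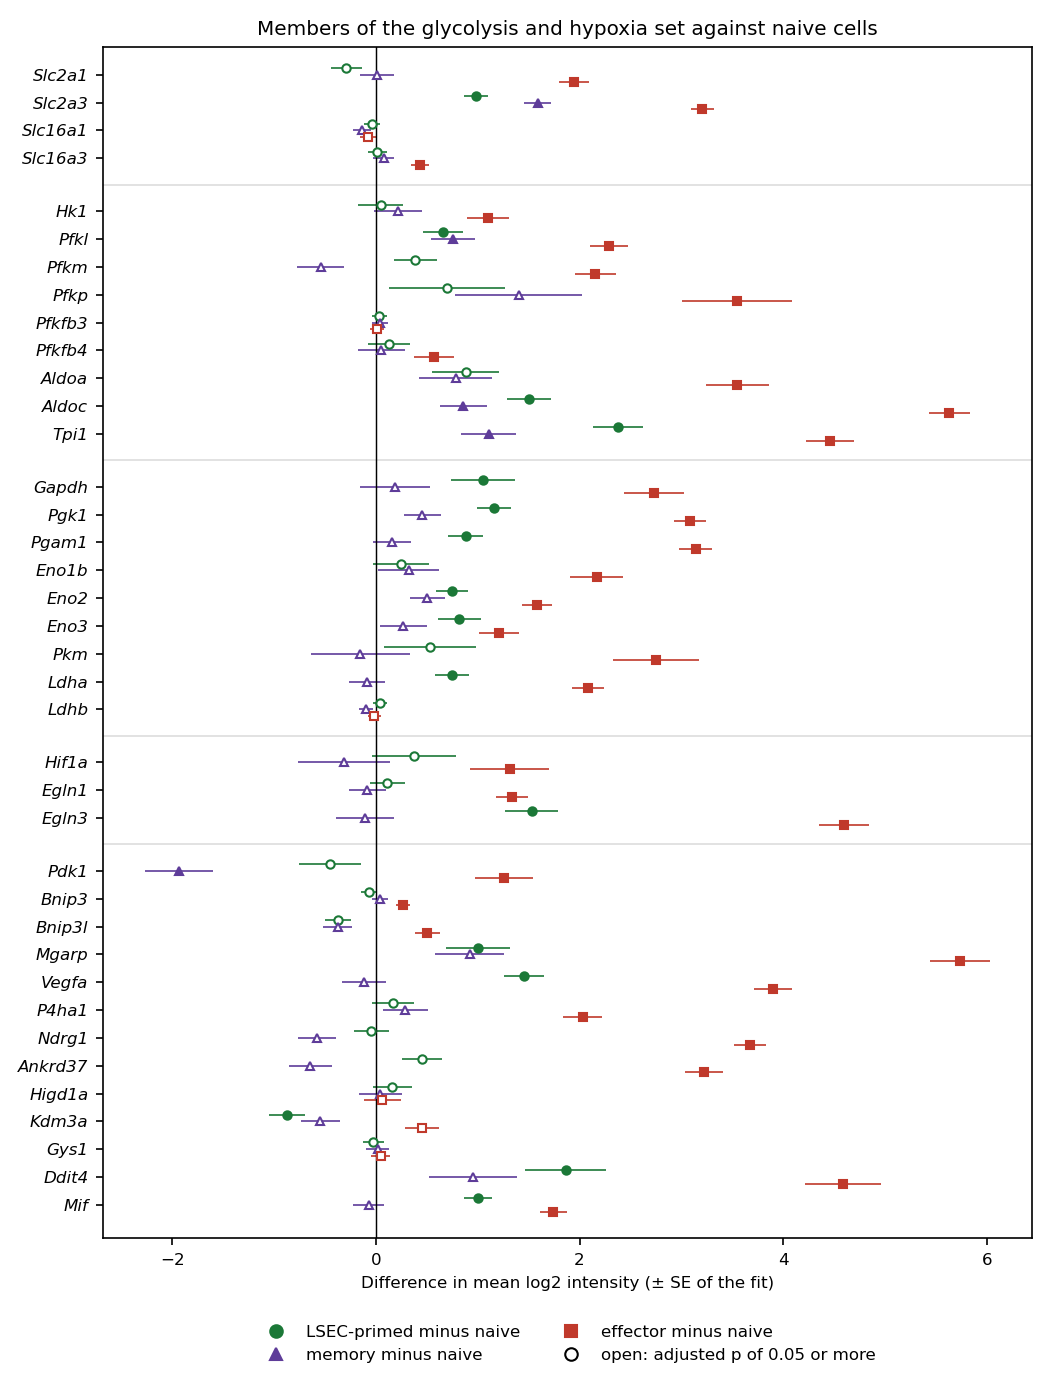
Difference in mean log2 intensity from naive cells (horizontal axis, ± SE of the fit) for each measured member, in rows set out by role from transport at the top to hypoxia response genes at the bottom, for LSEC-primed (circles), memory (triangles) and effector cells (squares). Filled points passed an adjusted p of 0.05. Of the effector points 32 are filled, against 16 for LSEC-primed and 5 for memory cells. Mgarp, Eno2, Bnip3 and Slc16a3 were above background on no naive array, so their points do not give the size of the change.

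By role, every group of members held calls in effector over naive cells. The one with the highest adjusted p was that of Pfkfb4 (0.57, SE 0.20, adjusted p = 0.0449), which was lost without any 1 of 4 naive samples or any 1 effector sample. Of the 4 transporters 3 were higher, of 9 measured members of upper glycolysis 8, of 9 of lower glycolysis and lactate dehydrogenase 8, of Hif1a and the 2 hydroxylases all 3, and of 13 other hypoxia response genes 10. The median difference was 1.19 for the transporters, 2.29 for upper glycolysis, 2.17 for lower glycolysis, 1.34 for the HIF group and 1.74 for the other hypoxia genes. The 6 that did not pass were Slc16a1, Pfkfb3, Ldhb, Higd1a, Kdm3a and Gys1. Slc16a1, Ldhb and Gys1 were above background on no array, so these probes could not show a difference. Pfkfb3 was above background on 1 of the 17 arrays and Higd1a on 8. Kdm3a, a histone demethylase, was above background on all arrays and differed by 0.45 (SE 0.17, adjusted p = 0.0677).

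Many of these genes carry short HIF-like elements in their promoters. HIF binds a core of ACGTG or GCGTG, and both were counted on either strand in the 250 bases before each start of a gene in RefSeq's mouse genes (build GRCm38.p6). A gene with several starts counted once if any of its windows held a match, and the 37 members with an entry had 53 windows. A CACGTG holds ACGTG on both strands and was counted on each. Of these 37 members, 32 (86.5%) held at least 1 of these, as did 49.7% of 15237 genes with a probe symbol and 41.5% of all 27025 genes. ACGTG was found in 54.1% of members and in 20.9% of genes with a probe symbol, and GCGTG in 64.9% and 39.2%. Per window the shares with either core were 75.5% for members and 46.1% for genes with a probe symbol. The members were chosen by name and not by sequence, and these shares are given with no test. Because the names were drawn from genes of glycolysis and of the response to low oxygen, the shares are not independent of that choice. The windows were not matched for GC content. A match is not a binding site. The share with a match was 25 of 28 among members called higher in effector cells and 5 of 6 among those not called.

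The windows at the first listed start of 6 members are shown because they have the largest effector differences (Mgarp, Aldoc, Egln3, Ddit4 and Tpi1) or, in Ldha, as many matches as any member. Each runs 5′ to 3′ along the gene's strand and ends at the base before the start, and capitals mark ACGTG or GCGTG on either strand, so that the reverse strand reads CACGT or CACGC. They lie at chr3:51396548-51396797 (minus strand) for Mgarp, chr11:78322823-78323072 (plus) for Aldoc, chr12:54203875-54204124 (minus) for Egln3, chr10:59951771-59952020 (minus) for Ddit4, chr6:124814159-124814408 (minus) for Tpi1 and chr7:46845554-46845803 (plus) for Ldha.
Mgarp: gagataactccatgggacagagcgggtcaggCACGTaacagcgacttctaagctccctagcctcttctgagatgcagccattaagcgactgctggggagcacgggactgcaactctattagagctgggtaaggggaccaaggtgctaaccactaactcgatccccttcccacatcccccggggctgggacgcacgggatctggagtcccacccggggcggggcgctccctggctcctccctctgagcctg
Aldoc: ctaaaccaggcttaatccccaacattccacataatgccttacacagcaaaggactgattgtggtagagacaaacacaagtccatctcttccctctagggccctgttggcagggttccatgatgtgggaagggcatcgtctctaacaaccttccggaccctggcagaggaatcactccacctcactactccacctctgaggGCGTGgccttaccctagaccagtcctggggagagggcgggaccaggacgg
Egln3: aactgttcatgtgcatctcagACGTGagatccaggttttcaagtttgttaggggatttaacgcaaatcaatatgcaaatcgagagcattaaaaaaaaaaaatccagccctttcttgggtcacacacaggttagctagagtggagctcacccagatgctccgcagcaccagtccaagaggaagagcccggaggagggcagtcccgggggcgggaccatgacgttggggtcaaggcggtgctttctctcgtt
Ddit4: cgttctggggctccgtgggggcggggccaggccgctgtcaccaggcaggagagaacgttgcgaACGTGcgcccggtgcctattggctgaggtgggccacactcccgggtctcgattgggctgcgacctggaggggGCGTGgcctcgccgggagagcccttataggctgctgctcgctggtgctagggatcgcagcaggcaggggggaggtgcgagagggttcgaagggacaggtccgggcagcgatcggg
Tpi1: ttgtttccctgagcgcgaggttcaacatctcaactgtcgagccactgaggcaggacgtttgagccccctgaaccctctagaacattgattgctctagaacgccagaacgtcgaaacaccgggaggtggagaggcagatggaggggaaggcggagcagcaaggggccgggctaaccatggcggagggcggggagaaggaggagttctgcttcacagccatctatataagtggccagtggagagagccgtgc
Ldha: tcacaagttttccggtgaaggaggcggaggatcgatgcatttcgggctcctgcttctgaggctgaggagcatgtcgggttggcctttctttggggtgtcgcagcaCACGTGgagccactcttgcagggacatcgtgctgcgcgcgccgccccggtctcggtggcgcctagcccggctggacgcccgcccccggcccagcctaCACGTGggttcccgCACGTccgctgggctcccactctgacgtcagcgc
In these windows Ldha held 5 matches, namely 2 copies of CACGTG, each counted on both strands, and 1 further CACGT. Bnip3 also held 5. Ddit4 held 1 of each core, and Mgarp, Aldoc and Egln3 held 1 match each. The Tpi1 window held neither core although its log2 difference was among the largest. The first of the 2 Vegfa windows held none, and the second (chr17:46025164-46025413) held 1 of each core.

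The second comparison concerned LSEC-primed over naive cells. Of 38 members 15 were called higher and 1 lower, where 7.74% of all features were called higher and 5.38% lower, and 22 did not pass (13.1% of all features were called in either direction). The groups did not overlap in 13 members with LSEC-primed cells higher (7.74% of all features) and in 1, Pdk1, with them lower (5.49%). The median difference was 0.42 on the log2 scale, against 0.00 for all features. With only features above background on at least 3 arrays, 1927 of 11305 were higher and 1392 lower, and 16 of 33 members were called. Without LSEC-primed sample 14, 12 members were higher and 1 lower and the median was 0.21. Under median scaling of the arrays 7 were higher and none lower, with a median of 0.51.

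The 15 higher members came from all role groups, with no test between the groups. By role, 1 of 4 transporters, 3 of 9 members of upper glycolysis, 6 of 9 of lower glycolysis and lactate dehydrogenase, 1 of 3 in the HIF group and 4 of 13 other hypoxia genes were higher. Tpi1 had the largest difference, with log2 intensities of 11.83, 11.32, 12.38 and 11.64 in LSEC-primed samples 4, 7, 14 and 15, against 9.53, 9.52, 9.61, 9.25 and 9.15 in naive cells. The groups did not overlap, and the difference was 2.38 (SE 0.25, adjusted p = 5.36e-06, n = 4 and 5), or 5.20-fold. Ddit4 had 7.28, 7.74, 9.83 and 7.45 in LSEC-primed cells, against 6.21, 6.25, 5.91, 6.56 and 6.12 in naive cells, where 1 of 5 arrays was above background. Sample 14 was far above the other 3 LSEC-primed arrays, and the difference of 1.87 (SE 0.40, adjusted p = 0.00373) was 1.28 without it (adjusted p = 0.00127). Egln3 had 8.95, 9.36, 7.94 and 8.75 in LSEC-primed cells, against 7.13, 7.17, 7.33, 7.15 and 7.30 in naive cells, a difference of 1.53 (SE 0.26, adjusted p = 0.000585). Here sample 14 was the lowest of its group and still above all naive arrays. The 2 other kept Egln3 probes did not give this call, and 1 of them had the opposite sign. Aldoc differed by 1.50 (SE 0.21) and Vegfa by 1.46 (SE 0.20), with 1 of 5 naive arrays above background for each, and in both no LSEC-primed array overlapped a naive one.

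Smaller increases in LSEC-primed cells included 6 of the 9 measured members of lower glycolysis. The ATP-forming kinase Pgk1 had 11.38, 11.28, 11.89 and 11.38 in LSEC-primed cells, against 10.48, 10.30, 10.56, 10.14 and 10.14 in naive cells, a difference of 1.16 (SE 0.17, adjusted p = 0.00012). The mutase Pgam1 differed by 0.88 (SE 0.17), the lactate dehydrogenase Ldha by 0.75 (SE 0.17), the muscle enolase Eno3 by 0.82 (SE 0.21) and Gapdh by 1.05 (SE 0.32, adjusted p = 0.0366). The neuronal enolase Eno2 was above background on all LSEC-primed and on no naive arrays and was at least 1.40-fold higher, and Mgarp, in the same position, at least 1.56-fold. The liver phosphofructokinase Pfkl differed by 0.66 (SE 0.20, adjusted p = 0.0376) and the cytokine Mif by 1.00 (SE 0.14). Of these, Pfkl, Gapdh and Mgarp lost their call without sample 14 (adjusted p = 0.143, 0.13 and 0.158, with Pfkl at 0.49 and Gapdh at 0.85) and without several single naive samples. Pfkl and Mgarp lost it without sample 7 as well, Pfkl in the mean over its probes (0.27, adjusted p = 0.269) and Mgarp in the authors' processed values (adjusted p = 0.0723). Gapdh and Eno3 also lost theirs without sample 4 or without sample 15, and Mgarp lost its without any 1 of the effector samples too. Median scaling ended the calls of Slc2a3, Pfkl, Gapdh, Pgk1, Pgam1, Eno3, Ldha and Mif.

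The glucose transporters differed from each other. Slc2a3, which encodes GLUT3, had 10.69, 10.95, 10.55 and 10.64 in LSEC-primed cells, then 11.01, 11.63 and 11.30 in memory cells, then 12.96, 12.87, 12.95, 12.80 and 13.08 in effector cells, against 9.88, 9.60, 9.90, 9.56 and 9.68 in naive cells. No 2 of the 4 groups overlapped, and each step in the order effector, memory, LSEC-primed, naive was called. The place of memory cells in it depends on the scaling and on 3 arrays of which 2 were dim: under median scaling LSEC-primed over memory was 1.18 and memory over naive -0.083, neither called, and the LSEC-primed over memory call was lost with only these 2 groups in the fit (adjusted p = 0.0968). The difference from naive cells was 0.98 (SE 0.12) in LSEC-primed, 1.59 (SE 0.13) in memory and 3.21 (SE 0.11) in effector cells, and the LSEC-primed level was below the memory level by -0.61 (SE 0.14, adjusted p = 0.00584). Slc2a1, which encodes GLUT1, had 9.55, 9.56, 9.67 and 9.28 in LSEC-primed cells, then 9.46, 10.04 and 9.93 in memory cells, then 11.60, 11.39, 12.13, 11.63 and 11.99 in effector cells, against 9.65, 9.59, 10.07, 9.91 and 9.79 in naive cells. Effector cells alone stood above the other groups, by 1.95 (SE 0.15) over naive cells, while the LSEC-primed difference from naive cells was -0.29 (SE 0.16, adjusted p = 0.319, 95% interval -0.62 to 0.04). Of the lactate transporters, Slc16a3 was above background on 4 of 5 effector arrays and no others, and was at least 1.05-fold higher there than in naive cells, a call that the mean over all probes of the gene did not give (adjusted p = 0.107).

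**Figure D3:**
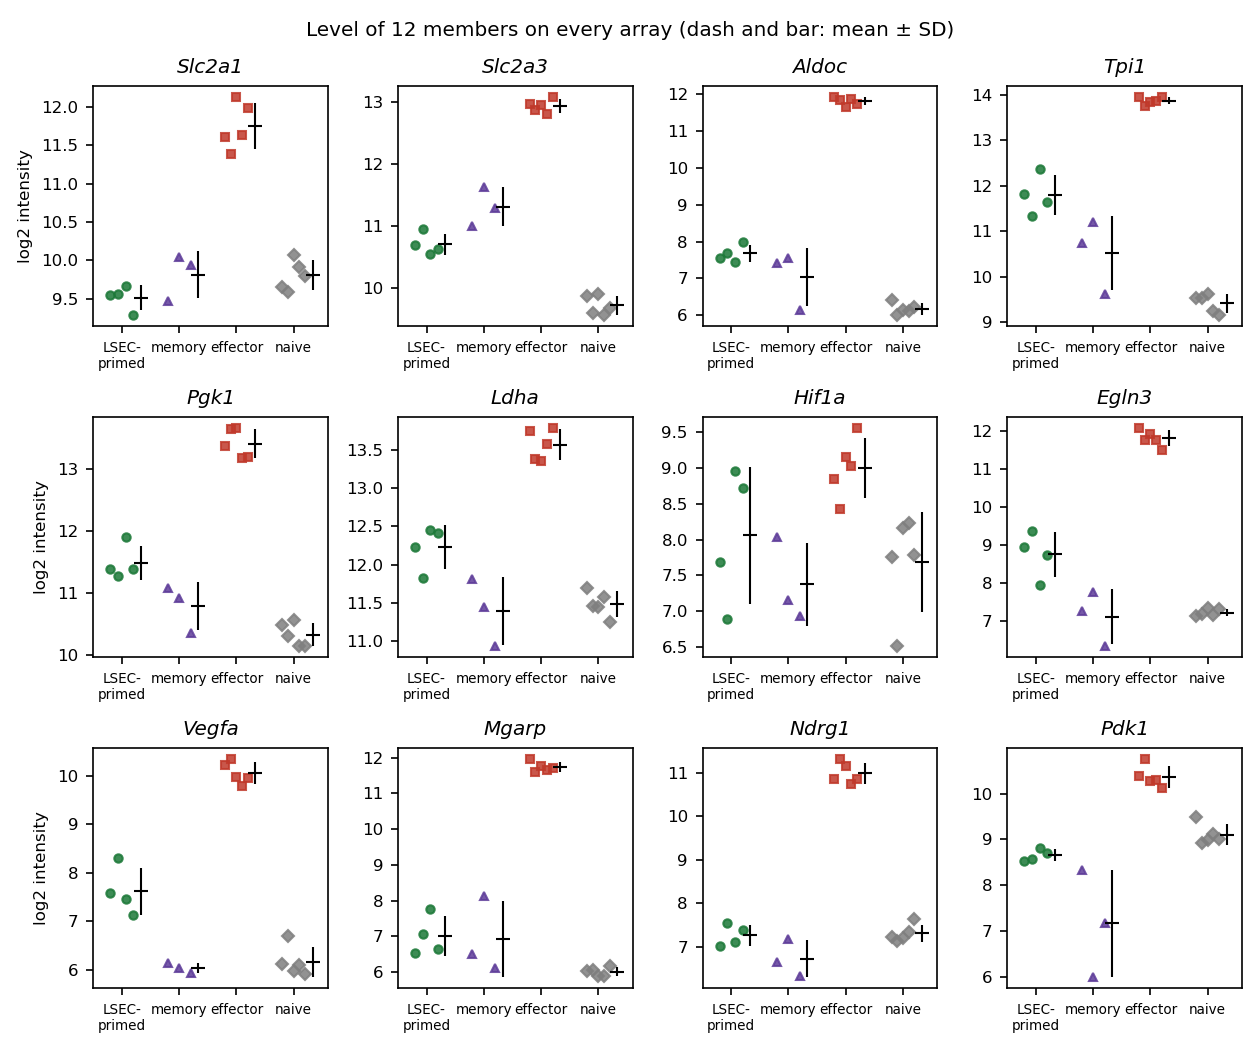
Log2 intensity (vertical axis, a different range in each panel) of 12 members on every array, in LSEC-primed (circles), memory (triangles), effector (squares) and naive cells (diamonds), with the mean ± SD beside each group. The effector arrays are apart from all others in all panels but that of Hif1a, and the LSEC-primed arrays lie between the naive and the effector arrays for Slc2a3, Aldoc, Tpi1, Pgk1, Ldha, Egln3, Vegfa and Mgarp, but not for Slc2a1, Ndrg1 or Pdk1.

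Kdm3a was the 1 member lower in LSEC-primed than in naive cells. It had 9.47, 9.42, 10.35 and 9.78 in LSEC-primed cells, then 10.20, 10.10 and 9.96 in memory cells, then 11.03, 10.97, 11.04, 11.03 and 11.30 in effector cells, against 10.53, 10.21, 10.88, 10.53 and 11.00 in naive cells. LSEC-primed sample 14 overlapped the naive range, and the difference was -0.88 (SE 0.18, adjusted p = 0.00244), or -0.79 with no call under median scaling (adjusted p = 0.452). Bnip3l, a receptor for the removal of mitochondria, was at -0.37 (SE 0.13, adjusted p = 0.0735) and Pdk1, the kinase that inhibits pyruvate dehydrogenase, at -0.45 (SE 0.30, adjusted p = 0.489) in LSEC-primed over naive cells, and neither passed.

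Several members that were not called varied widely between the LSEC-primed arrays. Pfkp had 8.97, 7.40, 10.90 and 10.40 in LSEC-primed samples 4, 7, 14 and 15, then 10.62, 10.16 and 9.57 in memory cells, then 12.08, 11.79, 11.97, 12.74 and 12.75 in effector cells, against 9.09, 7.26, 8.98, 9.24 and 9.03 in naive cells. Samples 14 and 15 were high and samples 4 and 7 were within the naive range, and the difference from naive cells was 0.70 (SE 0.57, adjusted p = 0.603). The pyruvate kinase gene Pkm had 10.71, 9.76, 12.27 and 11.95 in LSEC-primed cells, against 11.02, 10.06, 10.42, 11.00 and 10.71 in naive cells, with the same 2 samples high. Hif1a had 7.69, 6.89, 8.96 and 8.72 in LSEC-primed cells, then 8.03, 7.16 and 6.93 in memory cells, then 8.85, 8.42, 9.15, 9.03 and 9.56 in effector cells, against 7.76, 6.51, 8.16, 8.23 and 7.78 in naive cells. Samples 14 and 15 were again the high ones and overlapped the effector range. The Hif1a difference was 0.38 (SE 0.41, adjusted p = 0.746) in LSEC-primed over naive cells and 1.31 (SE 0.39, adjusted p = 0.02) in effector over naive cells, and the effector call was lost without naive sample 2 (1.02, adjusted p = 0.0587) or without effector sample 17 (1.17, adjusted p = 0.0579). Aldoa had 9.39, 9.55, 11.20 and 10.34 in LSEC-primed cells, against 9.71, 8.91, 9.17, 9.52 and 8.86 in naive cells, a difference of 0.88 (SE 0.33, adjusted p = 0.103) that was 0.52 without sample 14 and passed without sample 4 (1.13, adjusted p = 0.0412). The median of the upper glycolysis members over naive was 0.19, 0.14, 1.18 and 0.50 in LSEC-primed samples 4, 7, 14 and 15, and that of the hypoxia genes outside glycolysis was -0.07, 0.23, -0.02 and 0.08.

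The third comparison set LSEC-primed cells directly against effector cells. Here 30 of 38 members were called lower and 0 higher, where 6.78% of all features were called lower and 7.96% higher, and the median difference was -1.69, against 0.01 for all features. In all 30 the groups did not overlap, as in 7.01% of all features in this direction and 8.58% in the other, and 14.7% of all features were called. Without LSEC-primed sample 14 the count of lower members was 30 and the median -1.84. At least 2-fold lower were 25 members, with no share over all features taken. The 8 that did not pass were the 4 with weak or no signal (Slc16a1, Pfkfb3, Ldhb and Gys1), Higd1a, Pfkfb4, Eno3 and Hif1a.

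The 10 largest of these differences took in 5 hypoxia response genes, Egln3 and 4 glycolytic enzymes. Mgarp had 6.55, 7.06, 7.77 and 6.66 in LSEC-primed cells, against 11.97, 11.60, 11.76, 11.65 and 11.73 in effector cells, a difference of -4.73 (SE 0.31, adjusted p = 2.55e-08, n = 4 and 5). Aldoc differed by -4.13 (SE 0.21) and Egln3 by -3.07 (SE 0.26). Ndrg1 had 7.02, 7.55, 7.11 and 7.40 in LSEC-primed cells, then 6.67, 7.19 and 6.34 in memory cells, then 10.86, 11.32, 11.15, 10.74 and 10.86 in effector cells, against 7.23, 7.14, 7.20, 7.34 and 7.65 in naive cells. Its effector arrays were apart from the rest and its LSEC-primed arrays were within or just outside the naive range, with differences of -3.72 (SE 0.17, adjusted p = 4.57e-10) from effector and -0.04 (SE 0.17, adjusted p = 0.952) from naive cells. Ankrd37 was lower by -2.78 (SE 0.20), Pfkp by -2.85 (SE 0.57), Ddit4 by -2.72 (SE 0.40), Aldoa by -2.67 (SE 0.33), Vegfa by -2.44 (SE 0.20) and Pgam1 by -2.26 (SE 0.17), with adjusted p at or under 0.00188. Among the 30 were Bnip3 and Slc16a3, which were above background on no LSEC-primed array, so that the size of their difference is not known. Slc16a3 was at least 1.06-fold lower, a call that the mean over its probes did not give (adjusted p = 0.435), and Bnip3 was above background on 1 effector array only and has no bound. Bnip3l and Mif lost their calls under median scaling (-1.03 and -0.89, adjusted p = 0.21 and 0.119).

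The place of the LSEC-primed mean between the naive mean, set at 0%, and the effector mean, set at 100% on the log2 scale, was taken for members called in effector over naive cells and above background on at least 1 array of each group used, 28 in all. Its median was 25.8%, and 21 members lay between 0% and 50%. Eno3 (67.8%), Mif (57.4%) and Tpi1 (53.3%) lay above 50%. Ndrg1, Slc2a1 (-14.9%), Pdk1 (-35.6%) and Bnip3l (-74.1%) lay below 0%, on the far side of the naive mean, and none of these 4 was called lower than in naive cells. The memory mean, over 26 members, had a median place of 8.21%, and 10 members lay below 0%. Slc2a3 was the member with the highest memory place, at 49.5%. These places rest on the same naive and effector means for both groups and are given as a description.

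**Figure D4:**
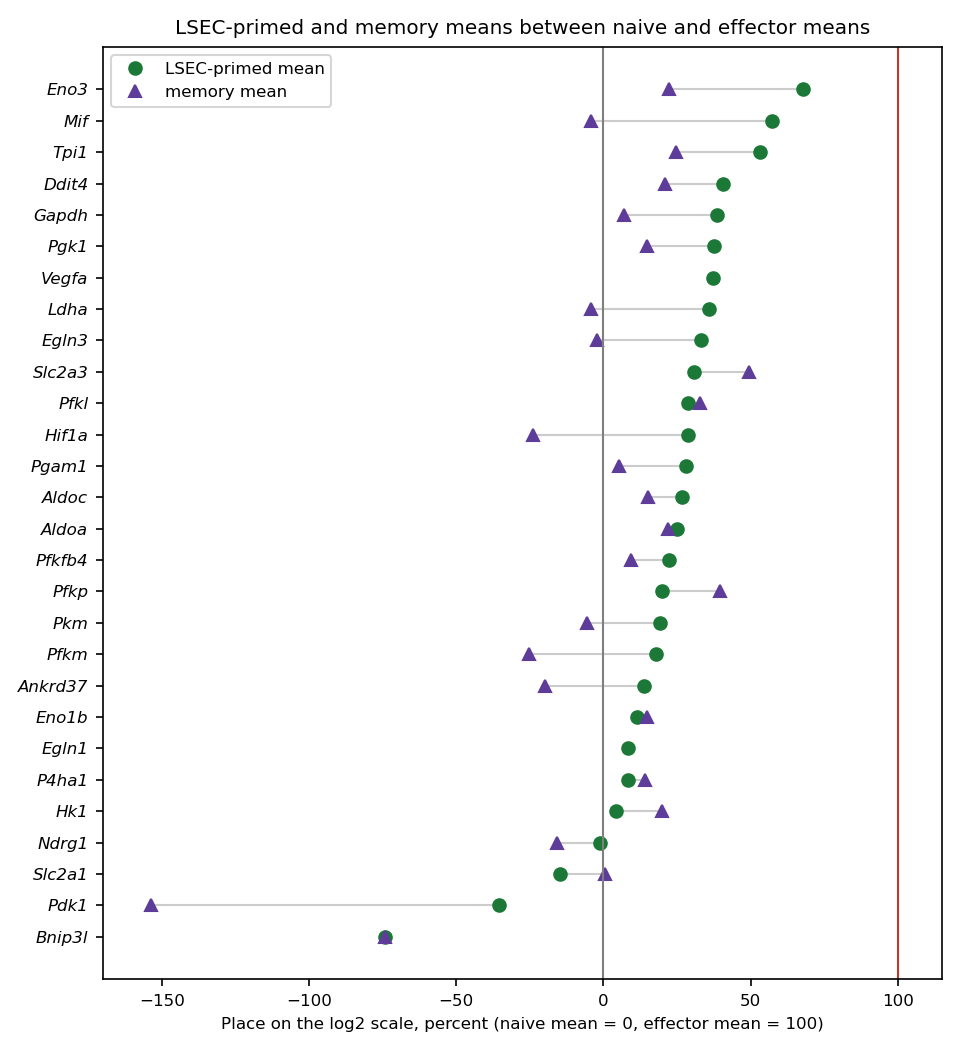
Place of the LSEC-primed mean (circles) and the memory mean (triangles) between the naive mean (0%) and the effector mean (100%) on the log2 scale, for 28 members called in effector over naive cells. Mgarp, Eno2, Bnip3 and Slc16a3 (naive arrays at background) and the memory points of Vegfa and Egln1 (memory arrays at background) are not drawn. The circles run from -74.1% (Bnip3l) to 67.8% (Eno3), and no LSEC-primed or memory mean drawn reaches the effector line.

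The fourth comparison set LSEC-primed cells against memory cells. Of 38 members 10 were called higher and 1 lower, where 7.92% of all features were called higher and 5.36% lower, with a median of 0.17, against 0.01 for all features (13.3% called in either direction). The groups did not overlap in 10 members with LSEC-primed cells higher (9.89% of all features) and in 1 with them lower (7.38%). Slc2a3 was the lower one. With only features above background on at least 3 arrays, 1974 of 11305 were higher and 1214 lower, and 11 of 33 members were called. Egln3 had 8.95, 9.36, 7.94 and 8.75 in LSEC-primed cells, against 7.26, 7.75 and 6.32 in memory cells, a difference of 1.64 (SE 0.30, adjusted p = 0.00121, n = 4 and 3). The 2 other kept Egln3 probes did not give this call, and 1 of them had the opposite sign. Vegfa had 7.59, 8.29, 7.45 and 7.12 in LSEC-primed cells, against 6.14, 6.04 and 5.94 in memory cells, none of them above background, and was at least 1.70-fold higher (adjusted p = 0.000173). Mif had 13.99, 14.04, 13.97 and 13.89 in LSEC-primed cells, against 12.81, 13.28 and 12.62 in memory cells, and the difference was 1.07 (SE 0.16, adjusted p = 0.00019). The LSEC-primed Mif values were close together and above all memory and naive values. Pdk1 (1.49), Tpi1 (1.27), Ankrd37 (1.09), Pfkm (0.93), Ldha (0.84), Pgam1 (0.72) and Pgk1 (0.70) were also higher, with adjusted p between 0.00296 and 0.0216. Of these, Ankrd37 was above background on 1 of 3 memory arrays.

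These memory counts moved with the scaling and with single arrays. Under median scaling 20 members were higher and none lower in LSEC-primed over memory cells, under cyclic loess 0 were higher and 1 lower, and with only these 2 groups in the fit 3 were higher and none lower. The counts over all 23699 features moved as well, from 1877 higher and 1271 lower. They were 3949 and 131 under median scaling, 765 and 701 under cyclic loess and 689 and 502 with only these 2 groups. Without memory sample 5 the Pfkm difference was 0.62 (adjusted p = 0.111) and that of Pdk1 0.90, and without memory sample 9 that of Tpi1 was 0.82 (adjusted p = 0.0184). Without LSEC-primed sample 14, 8 members were higher and 1 lower and the median was 0.16.

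The fifth comparison set memory cells against naive cells. Here 4 of 38 members were called higher and 1 lower, where 5.59% of all features were called higher and 6.28% lower, and the median was 0.04, against 0.00 for all features, so the share of members was near the background of 11.9% called in either direction. The groups did not overlap in 4 members with memory cells higher (6.87% of all features) and in 2 with them lower (7.68%). The 4 called higher were Slc2a3, Tpi1 (1.11, SE 0.27, adjusted p = 0.0115), Aldoc (0.86, SE 0.23, adjusted p = 0.0216) and Pfkl (0.75, SE 0.22, adjusted p = 0.0315). Tpi1 had 10.74, 11.20 and 9.62 in memory samples 3, 5 and 9, against 9.53, 9.52, 9.61, 9.25 and 9.15 in naive cells, so that the 2 dim arrays were high and sample 9 lay just above the naive arrays. Aldoc had 7.41, 7.56 and 6.13 in memory cells, against 6.41, 6.00, 6.13, 6.11 and 6.22 in naive cells, with the same 2 arrays high. Its probe was above background on 1 of 3 memory and 1 of 5 naive arrays, so this call lies close to background. No other kept probe of Tpi1, Aldoc or Pfkl repeated the call of its gene, and 1 of Tpi1 and 1 of Pfkl had the opposite sign. With sample 9 as the only memory array Tpi1 differed by 0.20, Aldoc by -0.042 and Pfkl by 0.08, none of them called, and under median scaling Slc2a3, Tpi1 and Pfkl changed sign (-0.083, -0.50 and -0.68, none called) and 0 members were higher and 7 lower. Pdk1 was the lower one. It had 8.33, 5.99 and 7.18 in memory cells, against 9.48, 8.92, 8.98, 9.11 and 9.02 in naive cells, a difference of -1.94 (SE 0.33, adjusted p = 0.000752), with every memory array below every naive one and the dimmest array the lowest.

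The sixth comparison set memory cells against effector cells. Of 38 members 31 were called lower and 0 higher, where 11.9% of all features were called lower and 10.8% higher, with a median of -1.83, against 0.01 for all features (22.7% called in either direction). In 30 members the groups did not overlap with memory cells lower (12.9% of all features), and in 0 with them higher (11.4%). Mgarp (-4.82, SE 0.34), Aldoc (-4.77, SE 0.23), Egln3 (-4.71, SE 0.28) and Ndrg1 (-4.25, SE 0.18) were among the largest. Mgarp, Aldoc and Ndrg1 were each above background on 1 of 3 memory arrays and Egln3 on 2, so these sizes depend in part on the background level. Vegfa was above background on no memory array and was at least 9.26-fold lower than in effector cells. The count of lower members lay between 28 and 32 when single samples were left out. This comparison shares its effector arrays with LSEC-primed over effector and effector over naive cells, so the 3 are not separate evidence on the effector group.

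Genes of the same pathways outside the 41 were looked at in further lists, chosen by name with earlier results of these data known. Among 48 measured other HIF target genes, 26 were higher and 5 lower in effector over naive cells, where 11.5% and 11.4% of all features were, and 9 higher and 8 lower in LSEC-primed over naive cells, where 7.74% and 5.38% of all features were. In LSEC-primed over effector cells 2 were higher and 24 lower (7.96% and 6.78% of all features), and in memory over naive cells 4 were higher and 6 lower (5.59% and 6.28%). The transcriptional repressor Bhlhe40 (4.23, SE 0.39), Fam162a (3.71, SE 0.12) and the collagen hydroxylase subunit P4ha2 (3.68, SE 0.11) rose in effector over naive cells, and the immediate early gene Fos fell (-3.79, SE 0.61). In LSEC-primed over naive cells Fos also fell (-2.73, SE 0.65), as did the chemokine receptor Cxcr4 (-2.46, SE 0.24), while Ier3 rose (2.24, SE 0.32) and Edn1, the endothelin of endothelial cells, was at least 4.63-fold higher. The endothelial marker sums given above were higher on the same arrays, and their part in the Edn1 and Vegfa values was not tested. In LSEC-primed over effector cells Bhlhe40 (-3.86, SE 0.41), P4ha2 (-3.68, SE 0.11), the lipoprotein receptor Vldlr (-2.84, SE 0.17) and Ppp1r3b (-2.82, SE 0.29), a subunit that directs a phosphatase to glycogen, were lower.

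The lists of other glycolysis genes and of neighbouring paths were smaller. Over all features, 11.5% were called higher and 11.4% lower in effector over naive cells, 7.74% and 5.38% in LSEC-primed over naive cells and 7.96% and 6.78% in LSEC-primed over effector cells. Of 29 other glycolytic isoforms and branch enzymes, 8 were higher and none lower in effector over naive cells, 3 higher and none lower in LSEC-primed over naive cells and none higher and 3 lower in LSEC-primed over effector cells. The glucose transporter family member Slc2a6 was higher than in naive cells by 1.61 (SE 0.13) in LSEC-primed and 1.38 (SE 0.12) in effector cells, the mannose phosphate isomerase Mpi by 1.06 (SE 0.17) and 1.56 (SE 0.16), and the phosphoglucomutase Pgm1 by 0.71 (SE 0.11) and 2.65 (SE 0.11). Of 19 glycogen and gluconeogenesis genes, 6 were higher and none lower in effector over naive cells and none was called in LSEC-primed over naive cells. The glycogen phosphorylase Pygl was higher by 4.03 (SE 0.22) in effector over naive cells and lower by -3.73 (SE 0.23) in LSEC-primed over effector cells. Of 11 pentose phosphate genes, 3 were higher and 1 lower in LSEC-primed over naive cells and 3 higher and none lower in effector over naive cells, among them the transketolase Tkt (0.66, SE 0.17, and 1.08, SE 0.16). Of 11 genes of pyruvate dehydrogenase and its regulators, 1 was higher and 1 lower in LSEC-primed over naive and 3 higher and none lower in effector over naive cells, where the kinase Pdk3 differed by 1.89 (SE 0.23).

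The regulators of HIF were called in both directions in effector over naive cells. Of 24 measured, 2 were higher and 1 lower in LSEC-primed over naive cells, where 7.74% and 5.38% of all features were. In effector over naive cells 6 were higher and 7 lower, against 11.5% and 11.4% of all features. The ubiquitin ligase Siah1a, which acts on prolyl hydroxylases, was lower by -1.80 (SE 0.24) and the chaperone Hsp90aa1 higher by 1.00 (SE 0.27) in effector cells. The HIF alpha subunit Hif3a was higher by 0.89 (SE 0.14) and Myc by 0.86 (SE 0.13). Among the members themselves Egln1, the main oxygen-sensing hydroxylase, had 6.41, 6.03, 6.60 and 6.39 in LSEC-primed cells, then 6.29, 6.05 and 6.15 in memory cells, then 7.62, 7.32, 7.30, 7.56 and 8.12 in effector cells, against 6.57, 5.87, 6.32, 6.43 and 6.04 in naive cells. Effector arrays were above all others, and the LSEC-primed arrays spread over the naive range, with differences from naive cells of 0.11 (SE 0.17, adjusted p = 0.843) in LSEC-primed and 1.34 (SE 0.16, adjusted p = 6.36e-06) in effector cells.

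Second probes gave a partial check on these values. Of the 38 members 21 had more than 1 kept probe, giving 180 pairs of a second probe and a comparison. In 118 pairs the 2 probes had the same result, which includes pairs where neither was called, and in 0 the opposite call. The 118 is therefore not a count of calls that a second probe repeated. A second probe had a difference of the opposite sign in at least 1 comparison in 15 members (Egln1, Egln3, Gys1, Hif1a, Hk1, Kdm3a, P4ha1, Pfkfb4, Pfkl, Pfkm, Pfkp, Pgam1, Pkm, Slc16a3 and Tpi1), and in 6 of these (Egln3, Pfkl, Pfkm, Pfkp, Slc16a3 and Tpi1) it did so in a comparison in which the member was called. The second kept probe of Pgk1, of Pdk1, of Pfkl and of Pkm repeated none of the calls of its gene. Those of Mif, Pgam1 and Aldoc repeated the call in effector over naive cells and not in LSEC-primed over naive cells. That of Aldoc also missed the calls in LSEC-primed over effector, memory over effector and memory over naive cells. That of Pgam1 also missed the call in LSEC-primed over memory cells. Many second probes were dim: those of Pfkl, Egln3 and Aldoc lay above background on 6 arrays or fewer. Eno1b, which rose by 2.17 (SE 0.26) in effector over naive cells, is a near-identical copy of Eno1, so its probe may also read Eno1 and its value is uncertain.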

How the data were processed

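RNA of 17 samples in 4 groups was measured on Illumina mouse bead arrays. The deposited tables hold linear bead intensities, non-normalised in one and, from its values, quantile-normalised by the authors in the other. The software that made them is not given in the sources used here. Of the non-normalised table, 3 columns that match no sample here were not used. Intensities were corrected with normexp (offset 50), quantile normalised and taken to log2. Probes above the array median on at least 3 arrays were kept (35237 of 45281). Symbols came from the platform annotation, which gives 34885 probes 1 symbol, 18 several and 10378 none. Members had 71 probes, 68 of them kept, and the brightest probe stood for each gene. One limma model (version 3.58.1, R 4.3.3) with a mean per group was fitted to 23699 features, with Benjamini-Hochberg adjustment over all of them and a threshold of 0.05. All adjusted p-values are limma's.

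The files hold no detection values, so a probe counted as above background on an array when it exceeded the mode of the raw log2 intensities by 3 SD of their lower side. Where a group lay at background on every array, a named gene gets only an "at least" fold, while counts of calls, medians over genes and the plot of differences use the fitted values. No probe's level was set against another's. Precision is limited by how many arrays a group has. The scripts were tested on simulated data. The 41 members, the further lists and the markers were chosen with earlier results of these data known. Any member may be named, and full statistics go to at most 10 called members per comparison with the largest differences and to those called against the majority. From each further list up to 4 called members with the largest differences are named. Alternatives covered background correction, scaling, filter, probe choice, array weights, the groups fitted and leaving out each sample.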

Additional observations from a re-analysis of the deposited data

Results flagged for a closer look

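Of 117 groups of 4 or 5 arrays, 10 held an array far from the rest of its group, and chance alone flags about 1 group in 20. In LSEC-primed cells, Pgk1 had its highest value in sample 14 (11.89, next 11.38), Bnip3l in sample 7 (11.29, next 10.86), Ldhb in sample 4 (6.18, next 6.11) and Gys1 in sample 15 (6.33, next 5.93), the last 2 at background. In effector cells, Pfkm was low in sample 10 (9.34, next 9.84), Eno1b was high in sample 8 (9.63, next 8.49) and Kdm3a was high in sample 17 (11.3, next 11.04). In naive sample 2, Pfkp (7.26, next 8.98) and Hif1a (6.51, next 7.76) were low and Vegfa (6.7, next 6.11) was high.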

How the results depend on the processing

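No paired analysis was possible because the labels name no animal or culture by which samples of different groups could be paired. The effector counts changed least: leaving out single samples gave 30 to 33 members higher in effector over naive cells (median 2.00 to 2.10), 30 to 31 lower in LSEC-primed over effector cells (median -1.84 to -1.63) and 28 to 32 lower in memory over effector cells (median -2.00 to -1.75). In LSEC-primed over naive cells it gave 12 to 15 higher, 1 to 2 lower and a median of 0.21 (without LSEC-primed sample 14) to 0.58 (without sample 7). In LSEC-primed over memory cells it gave 8 to 12 higher and a median of 0.16 to 0.49. In memory over naive cells it gave 1 (without memory sample 5) to 7 (without memory sample 9) higher, 1 to 2 lower and a median of 0.02 to 0.17. Median scaling gave 7 higher and 0 lower in LSEC-primed over naive cells, 20 higher and 0 lower in LSEC-primed over memory cells (median 1.26), 0 higher and 7 lower in memory over naive cells (median -0.36), and medians of 2.32 in effector over naive and -3.42 in memory over effector cells. Over all features it gave 3949 higher and 131 lower in LSEC-primed over memory cells, against 1877 and 1271 with quantile normalisation, 121 and 3053 in memory over naive cells, against 1325 and 1489, and 283 and 5474 in memory over effector cells, against 2557 and 2811. In LSEC-primed over naive cells it gave 746 and 384, against 1834 and 1276, in LSEC-primed over effector cells 493 and 1092, against 1887 and 1606, and in effector over naive cells 2293 and 980, against 2726 and 2701. It reversed Slc2a3 in LSEC-primed over memory cells (1.18) and, in memory over naive cells, Slc2a3 (-0.083), Pfkl (-0.68) and Tpi1 (-0.50). Cyclic loess gave 2 lower in LSEC-primed over naive cells, 0 higher in LSEC-primed over memory cells and a median of 0.27 in memory over naive cells. The stricter filter gave medians of 0.66 in LSEC-primed over naive, 0.54 in LSEC-primed over memory and -2.15 in memory over effector cells, and 3 lower in memory over naive cells. The mean of all probes gave medians of -1.05 in LSEC-primed over effector, 1.55 in effector over naive and -1.48 in memory over effector cells, and 1 higher and 3 lower in memory over naive cells. The median in effector over naive cells was 1.85 with the authors' processed values and 1.88 without background correction. Array weights gave 2 lower in LSEC-primed over naive cells and 2 higher and 2 lower in memory over naive cells. With only the 2 groups compared there were 2 lower in LSEC-primed over naive cells, 3 higher and 0 lower in LSEC-primed over memory cells and 2 higher in memory over naive cells. Without memory samples 3 and 5, chosen after seeing the data, the lone memory array is assumed to vary like the other groups, and there were 2 lower in LSEC-primed over naive cells, a median of 0.59 in LSEC-primed over memory cells, 1 higher and 2 lower in memory over naive cells, where Aldoc reversed (-0.042), and a median of -2.08 in memory over effector cells. The cause of these shifts was not tested. Signal over background limits the members Slc16a1, Ldhb and Gys1, which were above it on no array.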
